A study of Homo sapiens with 12 samples.

Results

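The hepatocyte plasma protein genes AFP, TF, TTR, AHSG, A1BG and A2M were followed on all arrays of the series. The members were every probe whose platform gene symbol was one of these 6, which gave 7 of 27561 probes, or 6 of the 13881 genes named by a probe. TTR had 2 probes and each other gene had 1. The arrays, 12 in 4 groups of 3, were hybridised in Cy5 with RNA of cells that the labels call HepG2, which is a human hepatocellular carcinoma line. The cells had been given 25 µM of glycyrrhizin, a triterpenoid saponin of liquorice, 25 µM of silymarin, a mixture of milk thistle flavonolignans, or 25 µM of ursodeoxycholic acid, a hydrophilic bile acid, and the mock-treated cells served as control. All groups grew in the same serum-supplemented medium, and the labels give neither a treatment time nor separate cultures for the 3 arrays of a group, so that the p-values measure a spread between arrays that may be technical. In lysates of whole cultures, fewer cells that express a gene and less of its RNA per cell cannot be told apart.

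Hepatocytes secrete most of the protein dissolved in blood plasma, and these 6 proteins carry ligands or bind other proteins there. AFP, alpha-fetoprotein, belongs to the albumin family, is made by fetal liver, is silenced after birth and returns in many hepatocellular carcinomas, and it is a classic product of HepG2 cells. TF, transferrin, carries ferric iron, and TTR, transthyretin, carries thyroxine and the retinol-binding protein. AHSG, fetuin-A, binds calcium phosphate and keeps it from crystallising, A2M, alpha-2-macroglobulin, traps proteases, and A1BG is a plasma glycoprotein of immunoglobulin-like domains.

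On GRCh38.p14, AFP lies on chromosome 4 from 73436221 to 73456174, TF on chromosome 3 from 133661998 to 133796641 and AHSG on the same chromosome from 186613060 to 186621318. TTR lies on chromosome 18 from 31591877 to 31598821, A1BG on chromosome 19 from 58345183 to 58353492 and A2M on chromosome 12 from 9067708 to 9116229. Where in each transcript a probe lies is not given in the sources used here. Promoters of AFP and TF, the members with the smallest p-values for glycyrrhizin against control, are shown to set their DNA beside those values. Each holds 300 bases around a transcription start, mostly before it, in the sense of the gene, and comes from RefSeq on GRCh38.p14. Capitals mark matches on either strand to 4 short motifs: the HNF1 core GTTAAT, the TATA box TATAAA, the nuclear receptor core AGGTCA and the C/EBP motif TTGCNNAA. TF has 2 promoters in that table, and the one printed is the downstream one, inside the annotated gene.
AFP, chr4:73435971-73436270, plus strand: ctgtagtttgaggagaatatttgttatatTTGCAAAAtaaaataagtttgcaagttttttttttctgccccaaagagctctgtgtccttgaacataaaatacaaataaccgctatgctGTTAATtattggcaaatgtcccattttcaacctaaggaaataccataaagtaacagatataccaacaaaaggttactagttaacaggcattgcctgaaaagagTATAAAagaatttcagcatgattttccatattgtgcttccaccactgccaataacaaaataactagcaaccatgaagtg
TF, chr3:133746143-133746442, plus strand: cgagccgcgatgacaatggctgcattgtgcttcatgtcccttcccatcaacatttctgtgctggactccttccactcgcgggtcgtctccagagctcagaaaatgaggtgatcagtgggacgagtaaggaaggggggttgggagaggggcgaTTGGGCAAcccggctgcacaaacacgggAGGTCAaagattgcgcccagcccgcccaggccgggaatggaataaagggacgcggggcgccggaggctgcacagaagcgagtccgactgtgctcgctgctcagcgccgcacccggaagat
The AFP window held 1 match each to the HNF1 core, the TATA box and the C/EBP motif, the first bases of which lay at −132, −29 and −221 from the start, and no 2 of them overlapped. The printed TF window held 1 match each to AGGTCA, at −70, and TTGCNNAA, at −98 on the reverse strand, with no overlap. The upstream TF window, at chr3:133661748-133662047, held none of the 4. Promoters were found for 4 of the 6 genes. Those of AHSG and A1BG held 1 match each, to the C/EBP motif and to AGGTCA. Among 35116 promoters of this length, 6.88% held GTTAAT on either strand, 11.5% TATAAA, 13.8% AGGTCA and 10.5% TTGCNNAA. A match describes the letters of a window and is not evidence of binding. The printed windows differed in base composition, with 61.3% G and C in TF and 33% in AFP.

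None of the 6 genes was near the top of the intensity range in any group. Over the 12 arrays A1BG averaged a log2 intensity of 8.40, TTR 7.77, AFP 6.89, TF 6.40, AHSG 6.19 and A2M 6.14, while the median gene averaged 6.70. As percentiles among all probes these means lay at 81.6 for A1BG, 73.8 for TTR, 58.8 for AFP, 50.4 for TF, 46.4 for AHSG and 45.4 for A2M. Among genes they lay lower, at 76.7, 68.5, 53.4, 44.6, 40.6 and 39.6 in the same order. A probe's intensity depends on its own sequence as well as on its transcript, so that this order of levels describes the probes. TTR exceeded AFP on 12 of 12 arrays, but the other neighbours in the order did not separate: A1BG exceeded TTR on 9 of 12 arrays, AFP exceeded TF on 8, and TF exceeded AHSG and AHSG exceeded A2M on 7 each. On single arrays the percentile among probes ran from 71.5 to 86.1 for A1BG and from 40.8 to 67.7 for AFP. The lowest value of any member's main probe was 5.10, for AHSG on silymarin replicate 2, at percentile 21.9.

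The cell label was set against marker lists on the same arrays. Of 10 markers of HepG2 cells and hepatocytes, 8 were measured, among them AFP, TF and TTR themselves, with a median gene percentile of 52.5, and 0 of the 8 lay above the 90th. ALB and HNF4A were not analysed here. The 8 measured of 10 neuroblast and sympathetic neuron markers had a median percentile of 81.6, and 3 lay above the 90th. The medians were 47.8 for 8 mesenchymal and stellate markers, 52.8 for 7 leukocyte markers and 51.2 for 8 endothelial and cholangiocyte markers. By median, the hepatocyte markers were thus measured near the middle of the range, below the neuroblast and sympathetic neuron markers. The 2 lists overlapped. Hepatocyte markers ran from percentile 21.2 for APOA2 to 81.9 for APOB, and neuroblast and sympathetic neuron markers from 31.0 for CHGB to 97.0 for TH. The lists were written with earlier results of these data known, and levels depend on the probes, so the order of medians is a description. HepG2 is used here only as the submitters' name for the cells. The values come without a call of presence or absence, so whether a probe near the middle lay above background is unknown. None of these lists had a member past the threshold in any comparison.

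**Figure D1:**
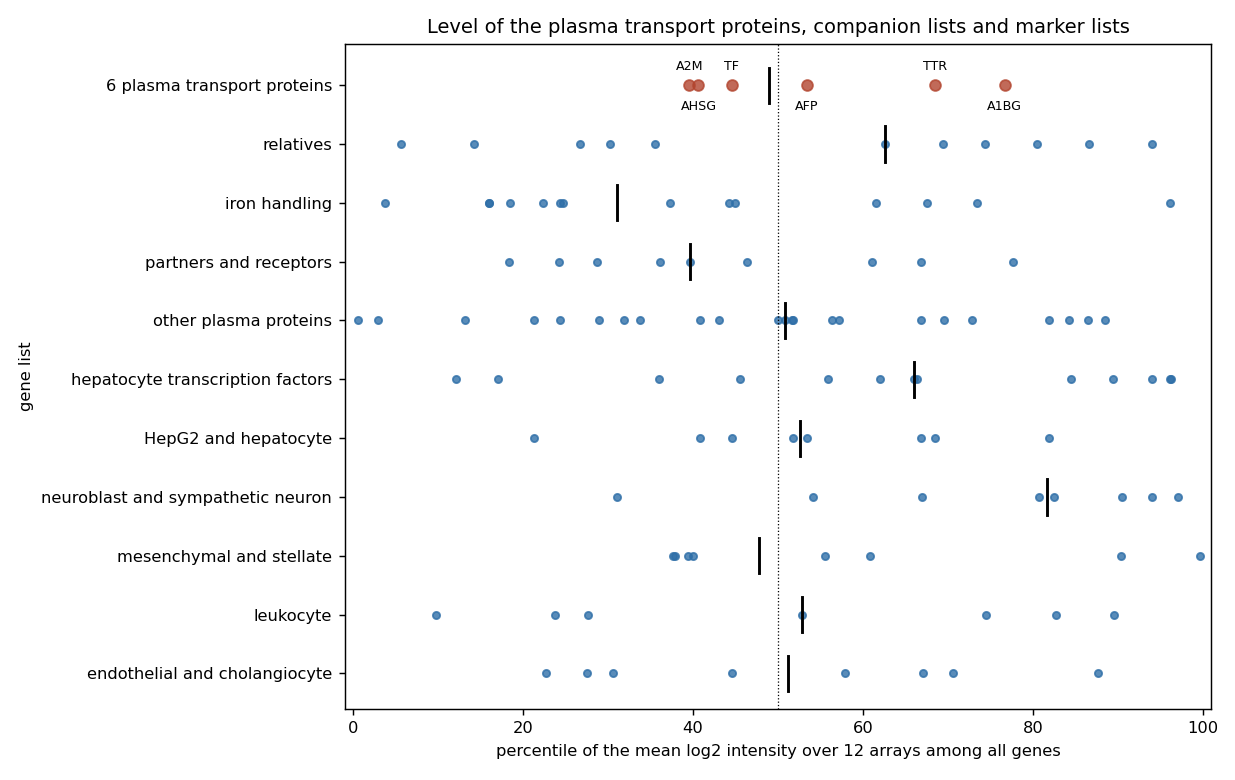
Percentile of each gene's mean log2 intensity over 12 arrays among all 13881 genes, with 1 row per gene list, 1 point per gene and a black bar at the list median. The 6 plasma transport proteins lie between 39.6 for A2M and 76.7 for A1BG, and the neuroblast and sympathetic neuron markers have the rightmost median, 81.6.

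AFP had the largest F statistic of the members and was measured lowest with glycyrrhizin. Its log2 intensity was 6.55, 6.27 and 5.93 on the 3 glycyrrhizin arrays, 7.07, 7.05 and 7.12 with silymarin, 7.18, 7.10 and 7.46 with ursodeoxycholic acid, and 6.85, 6.89 and 7.18 in control. All 3 glycyrrhizin arrays lay below each of the other 9, a pattern shown by 99 of 13881 genes, 0.713%. Taken pair by pair, the glycyrrhizin arrays lay wholly below control for 5.76% of genes, wholly below silymarin for 9.16% and wholly below ursodeoxycholic acid for 5.81%. These comparisons share the glycyrrhizin arrays, so they are not independent of each other. The 3 silymarin arrays lay inside the range of control, and the ursodeoxycholic acid arrays overlapped it.

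The AFP mean was 6.25 ± 0.31 with glycyrrhizin and 6.98 ± 0.18 in control (SD, n = 3 each), a log2 difference of −0.73 (SE 0.21, 95% interval −1.20 to −0.25), or 1.65-fold lower. In limma its unadjusted p was 0.00614, the 117th smallest of 13881, and its adjusted p 0.721, so AFP did not pass. With silymarin AFP averaged 7.08 ± 0.03, 0.10 from control (95% interval −0.37 to 0.57), and with ursodeoxycholic acid 7.24 ± 0.19, 0.27 from control (−0.20 to 0.74), adjusted p = 0.987 and 0.925 in limma. The difference between agents was tested directly. Glycyrrhizin lay below ursodeoxycholic acid by a log2 difference of −0.99 (SE 0.21, 95% interval −1.47 to −0.52), or 1.99-fold, with the 9th smallest p of all genes in that comparison (limma, unadjusted p = 0.000748, adjusted p = 0.882). It lay below silymarin by −0.83 (SE 0.21, adjusted p = 0.219 in limma), or 1.78-fold. Silymarin and ursodeoxycholic acid differed by −0.17 (95% interval −0.64 to 0.31). Across the 4 groups AFP had an unadjusted F test p of 0.00362 and an adjusted p of 0.438 in limma, where 6.71% of genes lay under an unadjusted 0.05 and 0.0216% passed. Within groups AFP varied little: its residual SD, 0.20 log2 units, was at percentile 2.5 among the 1000 genes nearest to it in level.

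TF was measured lower with each agent than in control. On the 3 glycyrrhizin arrays its log2 intensity was 5.93, 6.60 and 5.95, with silymarin 5.92, 6.51 and 6.63, with ursodeoxycholic acid 6.40, 6.19 and 5.94, and in control 7.15, 6.90 and 6.65. All 9 agent arrays lay below all 3 control arrays, which held for 60 of 13881 genes, 0.432%. For glycyrrhizin alone it held for 5.76% of genes, for silymarin alone for 4.62% and for ursodeoxycholic acid alone for 4.21%. The gap was narrow, since the highest agent array, silymarin replicate 3, stood at 6.63 and the lowest control array, replicate 3, at 6.65. The agents share the control arrays, so the differences are not independent of each other.

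For TF the log2 difference from control was −0.74 (SE 0.28, 95% interval −1.35 to −0.13) with glycyrrhizin, 1.67-fold lower, with an adjusted p of 0.809 in limma. It was −0.54 (95% interval −1.15 to 0.07) with silymarin and −0.72 (95% interval −1.33 to −0.11) with ursodeoxycholic acid, with adjusted p = 0.977 and 0.925. The mean of the 3 agents lay −0.67 from control (SE 0.22, 95% interval −1.16 to −0.17), 1.59-fold lower, with an unadjusted p of 0.0131, the 166th smallest, and an adjusted p of 0.998 in limma. Between agents TF differed by −0.02 for glycyrrhizin against ursodeoxycholic acid (95% interval −0.62 to 0.59), by −0.19 for glycyrrhizin against silymarin (−0.80 to 0.41) and by 0.18 for silymarin against ursodeoxycholic acid (−0.43 to 0.79).

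**Figure D2:**
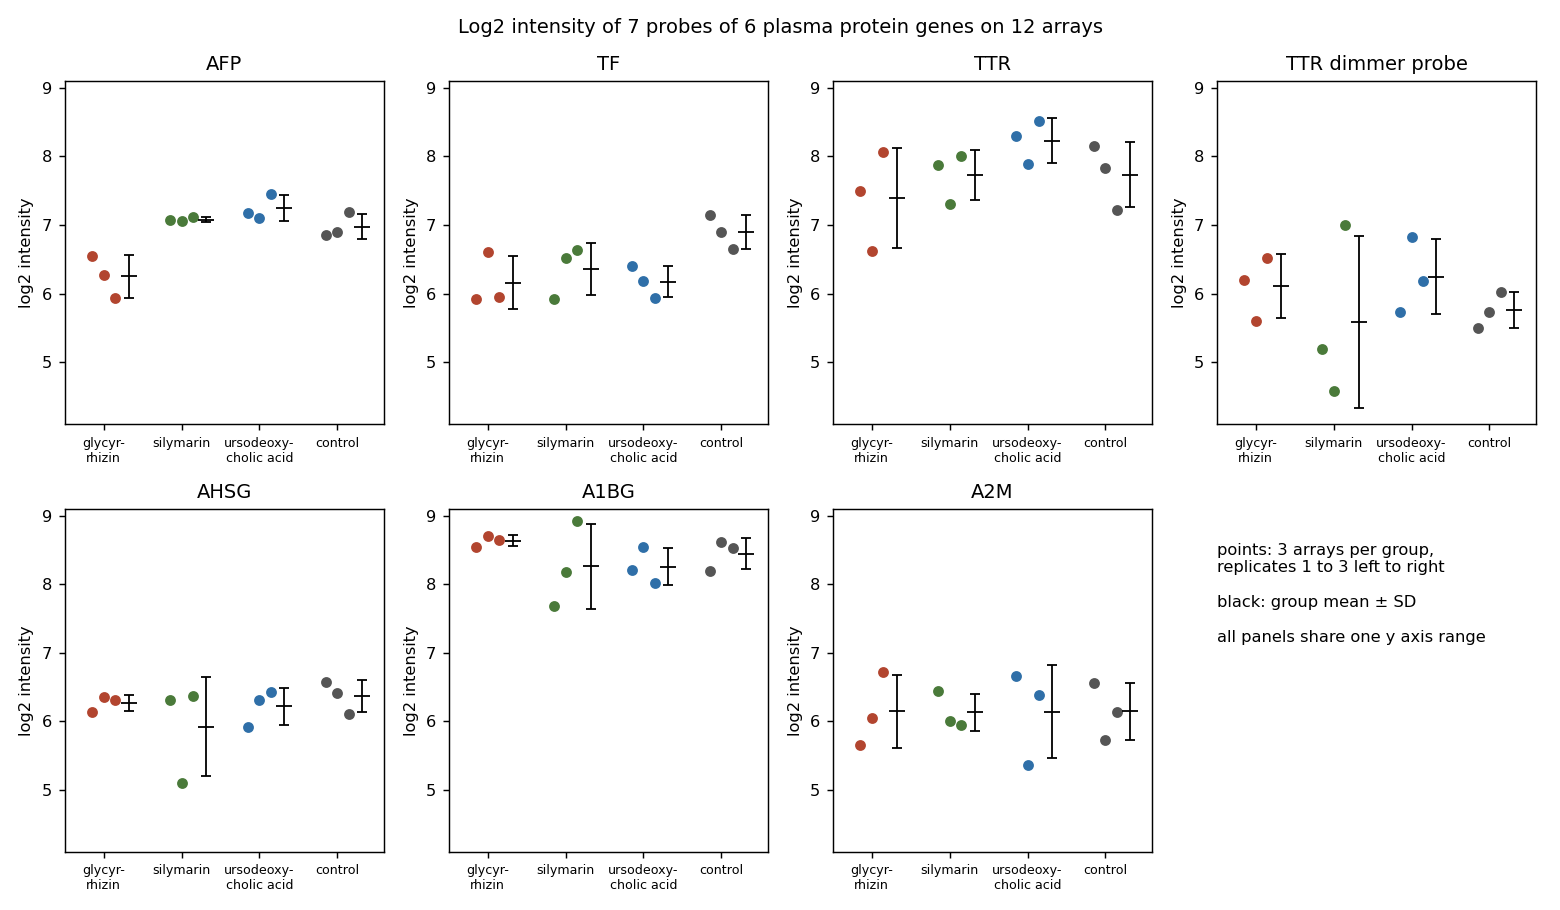
Log2 intensity of the 7 probes on the 12 arrays, with 1 point per array, groups along the horizontal axis and black bars for the group mean and SD over 3 arrays. The 3 glycyrrhizin arrays of AFP, between 5.93 and 6.55, lie below the other 9, and the 3 control arrays of TF, between 6.65 and 7.15, lie above the other 9.

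TTR gave different pictures at its 2 probes. The brighter probe read 7.50, 6.62 and 8.06 with glycyrrhizin, 7.88, 7.31 and 8.01 with silymarin, 8.30, 7.88 and 8.52 with ursodeoxycholic acid, and 8.15, 7.83 and 7.22 in control. The dimmer probe read 6.20, 5.61 and 6.53 with glycyrrhizin, 5.19, 4.58 and 6.998 with silymarin, 5.73, 6.82 and 6.18 with ursodeoxycholic acid, and 5.51, 5.73 and 6.03 in control. At both probes the groups overlapped, and the 3 silymarin arrays of the dimmer probe spanned its entire range over the 12 arrays.

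The brighter TTR probe exceeded the dimmer by 1.85 ± 0.72 log2 units over 12 arrays (SD), between 1.01 and 2.72 on single arrays. Over the 12 arrays the probes correlated at Pearson r = 0.31 (permutation p = 0.327) and Spearman rho = 0.27 (permutation p = 0.384), and at r = 0.37 without the 2 arrays farthest from the median of the brighter probe. For glycyrrhizin against control the brighter probe gave −0.34 (SE 0.39) and the dimmer 0.35 (SE 0.54). For ursodeoxycholic acid against control they gave 0.50 (SE 0.39) and 0.49 (SE 0.54), and for silymarin against control −0.0037 and −0.17. The largest TTR difference, glycyrrhizin against ursodeoxycholic acid, was −0.84 at the brighter probe (SE 0.39, 95% interval −1.69 to 0.01, adjusted p = 0.882 in limma) and −0.14 at the dimmer. With p-values adjusted over all 27561 probes, 0 of the 7 member probes passed in any of the 7 comparisons. Over all probes 0.0363% passed for glycyrrhizin against silymarin and 0% in the other comparisons.

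**Figure D3:**
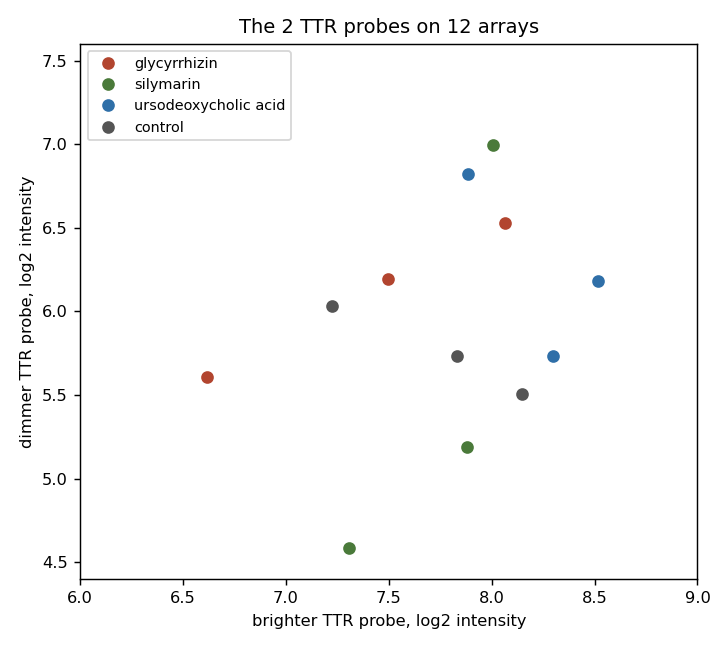
Log2 intensity of the dimmer TTR probe (vertical axis) against the brighter TTR probe (horizontal axis), with 1 point per array coloured by group. The points scatter widely (r = 0.31 over 12 arrays), and the silymarin arrays run from 4.58 to 6.998 on the vertical axis.

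AHSG, A1BG and A2M showed no separation of groups. AHSG read 6.13, 6.35 and 6.31 with glycyrrhizin, 6.31, 5.10 and 6.37 with silymarin, 5.92, 6.31 and 6.43 with ursodeoxycholic acid, and 6.58, 6.42 and 6.11 in control. Its largest difference from control, −0.44 with silymarin (SE 0.33, adjusted p = 0.977 in limma), came with replicate 2 at 5.10 and the other two silymarin arrays inside the control range. That array and ursodeoxycholic acid replicate 1 had the lowest median correlations with the other 11 arrays, r = 0.911 and 0.908 over all probes, against 0.922 to 0.938 for the rest. Without silymarin replicate 2, glycyrrhizin minus silymarin came to −0.0742 for AHSG, where all arrays gave 0.34.

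A1BG was the brightest member on 9 of 12 arrays. It read 8.55, 8.70 and 8.65 with glycyrrhizin, 7.68, 8.18 and 8.92 with silymarin, 8.21, 8.55 and 8.01 with ursodeoxycholic acid, and 8.20, 8.61 and 8.53 in control. The SD was 0.08 with glycyrrhizin and 0.62 with silymarin, and its differences from control were 0.19, −0.19 and −0.19 (SE 0.30 each) with glycyrrhizin, silymarin and ursodeoxycholic acid.

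A2M had the smallest F statistic of all 13881 genes across the 4 groups. Its group means were 6.14, 6.13 and 6.14 with glycyrrhizin, silymarin and ursodeoxycholic acid, and 6.15 in control, although single arrays ran from 5.37 to 6.72. Its differences from control were −0.0011, −0.014 and −0.0062 with glycyrrhizin, silymarin and ursodeoxycholic acid (SE 0.38 each). The 95% interval for glycyrrhizin was −0.85 to 0.85. That interval spans 0.56-fold to 1.80-fold of control, so equal means at this spread do not show equal levels.

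In the limma fit 0 of 6 members passed in any of the 7 comparisons, read beside the share of all genes that did. In simulated data for glycyrrhizin against control the test found 18% of 2-fold changes, so a count of 0 does not show unchanged levels. The share of all genes past the threshold was 0% in each comparison with control and for glycyrrhizin against ursodeoxycholic acid. It was 0.0504% for glycyrrhizin against silymarin and 0.0288% for silymarin against ursodeoxycholic acid. At an unadjusted p under 0.05 stood 2 members for glycyrrhizin against control, AFP and TF, where 5.37% of genes did. For silymarin against control the count was 0 with 4.89% of genes, and for ursodeoxycholic acid against control 1, TF, with 5.29%. For the mean of the agents it was 1, TF, with 4.26%. The pairs of agents gave 1 member for glycyrrhizin against silymarin, AFP, with 9.31%, 1 for glycyrrhizin against ursodeoxycholic acid, AFP, with 4.68%, and 0 for silymarin against ursodeoxycholic acid with 8.04%. Below control lay 5 of 6 members with glycyrrhizin, 5 with silymarin and 4 with ursodeoxycholic acid, where 47.5%, 47.7% and 47.7% of all genes lay below. The median member difference was −0.22, −0.10 and −0.08 in that order, against 0.02 over all genes each time. The counts below control include A2M with each agent, at −0.0011, −0.014 and −0.0062, and TTR with silymarin, at −0.0037. At its dimmer probe TTR with glycyrrhizin stood at 0.35 from control. All of these counts share the same control arrays.

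**Figure D4:**
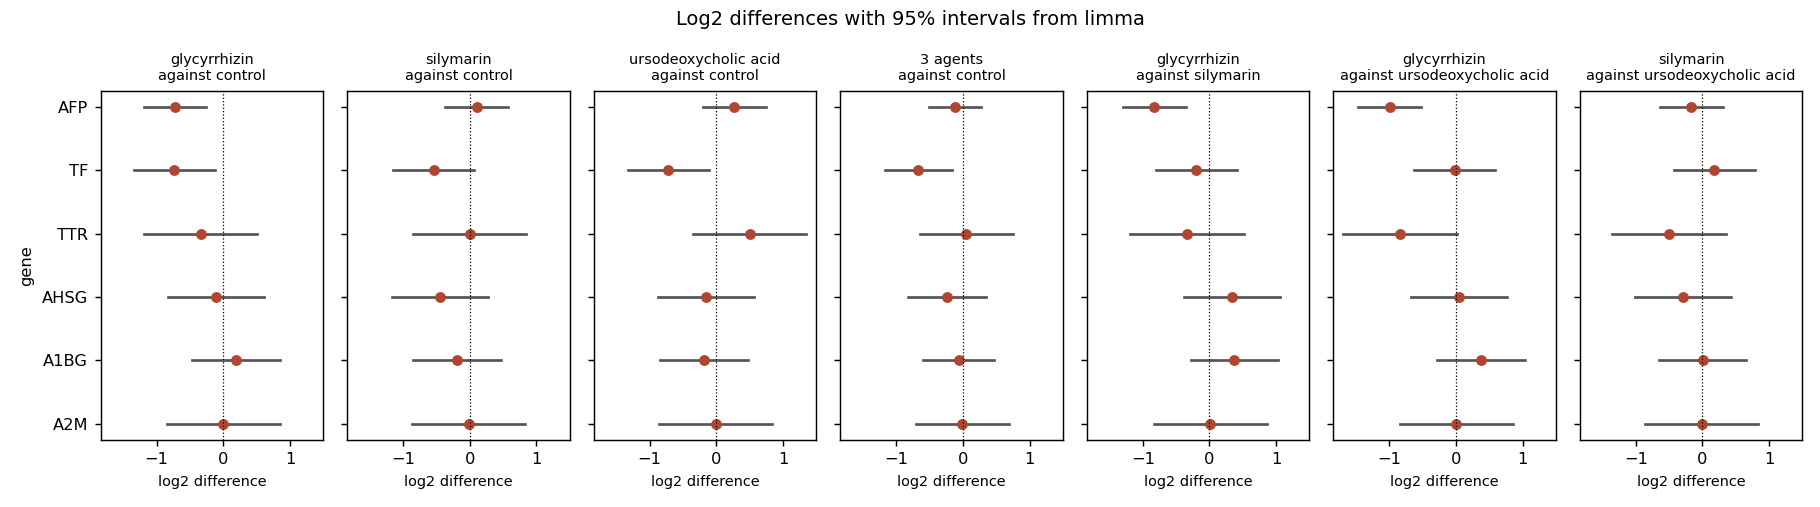
Log2 difference of each gene (point) with its 95% interval (line) from limma in the 7 comparisons, with the group named first minus the group named second. The intervals are not adjusted for the number of genes, and after adjustment no gene shown passed the threshold in any comparison. The intervals of AFP lie below 0 for glycyrrhizin against control, silymarin and ursodeoxycholic acid, those of TF lie below 0 against control for glycyrrhizin, for ursodeoxycholic acid and for the agents' mean, and every other interval crosses 0.

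No correlation between members from array to array passed its test. Over 12 arrays the 15 pairs had Pearson r between −0.44, for A1BG and A2M, and 0.39, for TTR and A2M, with a median of 0.07. By permutation 0 of 15 passed, the lowest Benjamini-Hochberg adjusted p being 0.788, 0 had an unadjusted p under 0.05, and Spearman's rho gave 0 as well. AFP and TF correlated at r = 0.10 (permutation p = 0.767, adjusted 0.886), rho = −0.01 (permutation p = 0.973) and r = −0.16 without the 2 arrays farthest from the median of AFP.

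The genes most like each member were those with the highest Pearson r over the 12 arrays, given as a description because the best of so many genes is high by selection. For AFP they were NCAM1, a neural cell adhesion molecule, ZNF589 and WAPL, a cohesin release factor, at r = 0.87, 0.87 and 0.86. For TF they were the phospholipase PLCB1, CYTH1 and CPNE7 at 0.89, 0.88 and 0.88. TTR ran closest to ZFYVE9, DIPK2B and the cyclophilin PPIA (0.95, 0.94 and 0.93), AHSG to the cytokine IL17F, POLE3 and JMJD6 (0.94, 0.94 and 0.93), A1BG to RUFY4, the mitochondrial import receptor TOMM20 and RUSC2 (0.91, 0.91 and 0.90), and A2M to the apelin receptor APLNR, UCP1 and NKX6-1 (0.88, 0.87 and 0.86). For the 3 genes nearest AHSG, Spearman's rho was lower, at 0.65, 0.74 and 0.59, and AHSG had 1 far lower array, silymarin replicate 2 at 5.10. Genes with r above 0.8 numbered 159 for AHSG, 127 for TTR and 11 to 24 for each other member. None of the 18 was another member or a gene of the companion lists.

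Relatives of the members by protein family were measured for 11 of 13 listed genes, and 0 passed in any of the 7 comparisons. IGSF1, an immunoglobulin superfamily gene, was the brightest of the list at 11.10. It ranged from 11.29 to 11.57 with glycyrrhizin, from 10.70 to 10.88 with silymarin, from 10.71 to 11.43 with ursodeoxycholic acid and from 10.98 to 11.18 in control, and glycyrrhizin lay 0.67 above silymarin (adjusted p = 0.323 in limma). HRG, a cystatin family relative of AHSG, averaged 8.33 ± 0.30 with glycyrrhizin and 8.55 ± 0.38 in control. With silymarin HRG averaged 8.96 ± 0.47 and with ursodeoxycholic acid 9.14 ± 0.32. The macroglobulin family member A2ML1 averaged 5.58 ± 0.20 with glycyrrhizin and 5.94 ± 0.20 in control. With silymarin A2ML1 averaged 5.36 ± 0.78 and with ursodeoxycholic acid 4.87 ± 1.06. CD109, of the same family, was the dimmest at 4.30. The list's median difference from control was 0.07, 0.17 and 0.09 with glycyrrhizin, silymarin and ursodeoxycholic acid, against 0.02 over all genes. In these 3 comparisons 0 of 11 had an unadjusted p under 0.05, where 5.37%, 4.89% and 5.29% of all genes did.

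Genes that handle the iron carried by TF were measured for 14 of 16, and 0 passed. The transferrin receptor TFRC averaged 4.85 ± 0.66 with glycyrrhizin, 5.17 ± 0.17 with silymarin, 4.33 ± 0.86 with ursodeoxycholic acid and 5.29 ± 0.38 in control. Its differences from control were −0.45, −0.12 and −0.97, and the ursodeoxycholic acid arrays ran from 3.37 to 5.05, against 5.04 to 5.73 in control. The ferritin light chain FTL averaged 5.99 ± 0.13 with glycyrrhizin and 6.44 ± 0.28 in control, and BMP6, the inducer of hepcidin, 5.49 ± 0.39 with ursodeoxycholic acid and 5.15 ± 0.23 in control. ACO1, the cytosolic aconitase that doubles as an iron sensor, was the brightest at 11.93, and the iron importer SLC11A2 the dimmest at 4.14. The list's median difference from control was −0.06, 0.17 and 0.22 with the agents in the same order. There 0 of 14 had an unadjusted p under 0.05, where 5.37%, 4.89% and 5.29% of all genes did.

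Of 11 partners and receptors 9 were measured, and 0 passed. ASGR1 and ASGR2, the subunits of the receptor that clears desialylated plasma glycoproteins, were measured on opposite sides of control with glycyrrhizin, at 0.81 and −0.73 (adjusted p = 0.909 and 0.943 in limma). ASGR1 ran from 6.13 to 6.93 with glycyrrhizin and from 5.32 to 6.13 in control, and ASGR2 from 5.85 to 5.89 with glycyrrhizin and from 6.17 to 7.12 in control. STRA6, the receptor for retinol-binding protein, averaged 7.38 ± 0.32 with ursodeoxycholic acid and 7.73 ± 0.28 in control. LRP1, the receptor that takes up A2M bound to proteases, was the brightest at 8.47, and LRP2 the dimmest at 5.03. The list's median difference from control was 0.19, 0.10 and 0.15 in the same order. Genes of the list with an unadjusted p under 0.05 numbered 1, 0 and 0 of 9, where 5.37%, 4.89% and 5.29% of all genes had one.

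Other plasma proteins of the hepatocyte were measured for 23 of 26 genes, and 0 passed in any comparison. Their median level, 6.75, was close to the median gene at 6.70, and 0 lay above the 90th percentile. Their median difference from control was 0.03, 0.09 and 0.01 with glycyrrhizin, silymarin and ursodeoxycholic acid, and 9, 11 and 10 of 23 lay below control. The haem carrier HPX was the brightest at 9.74 and averaged 10.01 ± 0.12 with glycyrrhizin and 9.58 ± 0.15 in control. The fibrinogen chains FGB and FGG lay at −0.87 and −0.95 from control with ursodeoxycholic acid (both adjusted p = 0.925 in limma), FGG with an SD of 1.27 over the 3 arrays. APOH was the dimmest at 3.55. An unadjusted p under 0.05 was found for 0, 0 and 1 of the 23, where 5.37%, 4.89% and 5.29% of all genes had one.

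Hepatocyte transcription factors were measured for 13 of 17, and 0 passed. ZBTB20, a zinc finger repressor of AFP in mouse liver, had the largest F statistic of the list. It ran from 11.58 to 11.78 with glycyrrhizin, from 11.72 to 12.01 with silymarin, from 11.65 to 11.84 with ursodeoxycholic acid and from 12.26 to 12.41 in control. All 9 agent arrays thus lay below control, which held for 60 of 13881 genes, 0.432%. ZBTB20 was named for its large F statistic, so this separation is partly by selection. Its differences from control were −0.69, −0.51 and −0.61, and that of the mean of the agents −0.60 (adjusted p = 0.718 in limma). GATA6, an endoderm factor, lay at −1.01 with glycyrrhizin and −0.95 with ursodeoxycholic acid but at 0.22 with silymarin (adjusted p = 0.861, 0.925 and 0.985). CEBPD, an acute phase factor, averaged 8.08 ± 0.44 with ursodeoxycholic acid and 7.26 ± 0.20 in control. CEBPB was the brightest at 11.97, with 12.39 ± 0.26 with silymarin and 11.80 ± 0.28 in control, and PROX1 the dimmest at 4.70. The list's median difference from control was 0.00, 0.22 and −0.11 with glycyrrhizin, silymarin and ursodeoxycholic acid, against 0.02 over all genes. An unadjusted p under 0.05 in limma was found for 2, 2 and 4 of 13, where 5.37%, 4.89% and 5.29% of all genes had one. The list was written with earlier results of these data known, so these counts are a description.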

How the data were processed

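The authors deposited normalized intensity values, linear and between 1 and 65221, for each probe on each array. Of tools, the submitters' processing notes name limma. How background was corrected and arrays were normalized is not stated in what was read here. At equal rank the 12 arrays differed by a median of 1.22%. Platform symbols named 15650 probes, 11911 had none, and older symbols were updated from RefSeq.

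Log2 intensities of all probes entered a linear model with 1 mean per group (R 4.3.3, limma 3.58.1, moderated by eBayes with 8 residual and 2.8 prior degrees of freedom). A gene was its brightest probe, and two-sided p-values were adjusted by Benjamini-Hochberg over 13881 genes (threshold 0.05). The test was checked on simulated data. In 5 runs for glycyrrhizin against control it found 18% of 2-fold and 65.6% of 4-fold changes. Correlations used 100000 permutations (scipy 1.17.1). Array number limits precision.

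Members and lists were chosen with earlier results of these data known. Named genes were the members, per list the 3 largest F statistics, the brightest and the dimmest, and the 3 genes most like each member. Alternatives covered normalization, probes, dim probes, offsets, variance models, a replicate block and each array left out.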

Additional observations from a re-analysis of the deposited data

How the results depend on the processing

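Under the other settings tried, 1 of them chosen after seeing the data, in which the prior spread came from the genes alone, 0 member differences passed the threshold. The smallest adjusted p in limma, 0.0599, was that of AFP for glycyrrhizin against silymarin with the dimmer 50% of probes left out, a setting that dropped AHSG and A2M. A replicate block cannot move a difference here, because each group holds the same replicate numbers. With it AFP for glycyrrhizin against control stayed at −0.73 (adjusted p = 0.85 in limma), and no member's call changed. Over all genes the block left 0 past the threshold for glycyrrhizin against silymarin and for silymarin against ursodeoxycholic acid. Same-numbered arrays of different groups had residual correlations from −0.19 to 0.15, and others from −0.23 to 0.27, so the numbers were not taken as pairs. AFP for glycyrrhizin against control ran from −0.88 to −0.57 without each array in turn, and against ursodeoxycholic acid from −1.14 to −0.84.

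Of 952 member values under alternatives 890 kept their direction and 62 reversed, all of them uncalled. Part of the 890 could not change. The replicate block, the variance models and leaving out an array of a group not compared leave a difference as it was. The count is therefore not a measure of stability. TTR for glycyrrhizin reversed against control and against silymarin when its probes were averaged (0.00596 and 0.0915) or the probe of highest variance taken (0.35 and 0.52). With array weights A2M turned to 0.0456, 0.16 and 0.0296 against control for glycyrrhizin, for silymarin and for the agents' mean, to −0.12 for glycyrrhizin against silymarin and to 0.28 for silymarin against ursodeoxycholic acid. TTR turned to 0.0691 for silymarin against control, TF to 0.0206 for glycyrrhizin against ursodeoxycholic acid, and A1BG to −0.17 for silymarin against ursodeoxycholic acid. An offset of 16 moved A2M to 0.00277 and 0.00586 for glycyrrhizin and ursodeoxycholic acid against control and −0.00308 between them, and an offset of 50 to 0.00541, 0.0128 and −0.00738, with 0.00146 for the mean of the agents. The cause was not tested.

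Leaving out each array in turn gave these ranges where a direction reversed. A1BG ran from −0.19 to 0.0315 for the 3 agents averaged against control, from −0.52 to 0.10 for silymarin against control and from −0.33 to 0.29 for silymarin against ursodeoxycholic acid. A2M ran from −0.29 to 0.24 for glycyrrhizin against control, from −0.27 to 0.25 for glycyrrhizin against silymarin, from −0.38 to 0.26 for glycyrrhizin against ursodeoxycholic acid, from −0.21 to 0.20 for the 3 agents averaged against control, from −0.22 to 0.20 for silymarin against control, from −0.39 to 0.25 for silymarin against ursodeoxycholic acid and from −0.27 to 0.38 for ursodeoxycholic acid against control. AHSG ran from −0.23 to 0.00028 for glycyrrhizin against control, from −0.0742 to 0.56 for glycyrrhizin against silymarin, from −0.10 to 0.15 for glycyrrhizin against ursodeoxycholic acid and from −0.51 to 0.12 for silymarin against ursodeoxycholic acid. TF ran from −0.24 to 0.10 for glycyrrhizin against ursodeoxycholic acid. TTR ran from −0.68 to 0.0464 for glycyrrhizin against control, from −0.67 to 0.0501 for glycyrrhizin against silymarin, from −0.20 to 0.26 for the 3 agents averaged against control and from −0.26 to 0.21 for silymarin against control.

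The level percentile of A1BG was 76.7 among genes instead of 81.6 among probes. Over all genes the counts past the threshold ran from 0 to 17, 0 to 4 and 0 to 6 for glycyrrhizin, silymarin and ursodeoxycholic acid against control (0 each in the main setting), from 0 to 3 for the mean of the agents (0), from 0 to 202 for glycyrrhizin against silymarin (7) and from 0 to 28 for silymarin against ursodeoxycholic acid (4). The 17, 4, 6, 3 and 202 came with a variance trend and robust estimation, and the 28 without ursodeoxycholic acid replicate 3. An offset of 50 gave 139 for glycyrrhizin against silymarin and the dimmer 50% of probes left out gave 68, while without any 1 glycyrrhizin array, or without silymarin replicate 1 or 2, the count was 0.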
